A study of Mus musculus with 8 samples.

Results

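The mRNA of 7 complement genes was measured in inguinal white adipose tissue (ING WAT), the subcutaneous fat of the groin, of mice at weaning and in young adulthood. These were the components *Cfd*, *C3*, *Cfb*, *Cfp*, *C4b* and *C2* and the inhibitor *Serping1*. They were taken by gene symbol, as complement components that fat is known to make, with no threshold on a measured value. They are 7 of the 37668 genes for which FPKM could be summed, and all 7 had a mean FPKM of at least 1, as did 15915 genes in all. FPKM relates the fragments of a transcript to its length and to the size of the library, so that levels of different genes can be compared. Whole ING WAT of C57BL/6j mice was taken at postnatal day 21 (PN21; m1, m49, m138, m145) and at postnatal day 98 (PN98; m35, m106, m114, m125). Poly(A)+ RNA of each mouse was sequenced in paired-end reads of 100 bases, and values below stand in this order of mice. The labels name no genetic change and no treatment other than age. The study fed its PN98 mice a standard or a western style diet from PN42 on, and the diet of the sequenced mice was not given in the sources used here. Nothing in the labels ties mice of different age to each other.

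Complement is a set of blood proteins that mark and lyse microbes and damaged cells. In the classical and lectin pathways, activated proteases cut C4 and C2, whose fragments form an enzyme that cuts C3. In the alternative pathway, factor B (*Cfb*) binds to a fragment of C3 and is cut by factor D (*Cfd*), and properdin (*Cfp*) stabilises the resulting enzyme. Cut C3 leads to the membrane attack complex, which is built from C5b, C6, C7, C8 and C9. *Serping1* encodes the C1 inhibitor, which blocks the proteases that start the classical and lectin pathways. The liver makes most of these proteins, whereas factor D, also named adipsin, is a main secreted product of adipocytes.

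*C4b*, *C4a*, *Cfb* and *C2* lie in the class III region of the major histocompatibility complex on chromosome 17, all on the minus strand (GRCm38, GENCODE vM21). *C4b* (chr17:34728380-34743882) and its near-identical copy *C4a* (chr17:34809092-34823464) are 65.2 kb apart. *Cfb* (chr17:34856374-34862518) follows *C2* (chr17:34862604-34898265) with 85 bases between them. *C3* lies apart on the same chromosome (chr17:57203970-57228136), *Cfd* on chromosome 10 (chr10:79890853-79892655), *Serping1* on chromosome 2 (chr2:84765387-84775444) and *Cfp* on the X chromosome (chrX:20925454-20931555). The locus *Gm20547* (chr17:34856412-34882042) holds read-through transcripts that join exons of *C2* to exons of *Cfb*. In the gene column of the deposited table, 39 transcripts listed a member, of which GENCODE vM21 assigns 28 to a member and 11 to other genes that overlap or adjoin it. Of the 15 transcripts of *C2* and *Cfb*, 10 carried both symbols in that column.

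The junction of the read-through transcript ENSMUST00000129891 is shown because reads across it tell this transcript from the separate genes. Beside it stand the junctions of *C2* and *Cfb* that lead into the exons it joins. Sequences run 5′ to 3′ along the transcript and come from GENCODE vM21, with the exon after the junction in capitals. In the read-through line, exon 9 (chr17:34863023-34863031) covers only the last of the small letters. The bases before it come from the exon upstream, and not from exon 17 of the *C2* transcript shown.
Gm20547 ENSMUST00000129891, exons 9 and 10: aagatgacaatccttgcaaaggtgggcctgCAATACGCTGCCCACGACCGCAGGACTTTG
C2 ENSMUST00000025230, exons 17 and 18: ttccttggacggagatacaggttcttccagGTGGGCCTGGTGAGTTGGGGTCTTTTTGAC
Cfb ENSMUST00000154526, exons 2 and 3: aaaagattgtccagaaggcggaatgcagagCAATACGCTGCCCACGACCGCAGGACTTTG
In the read-through transcript, the first bases of the last *C2* exon (chr17:34863023-34863031) are spliced to exon 3 of *Cfb* (chr17:34861028-34861213), over 1809 bases. Of its 25 exons, 9 lie in *C2* and 16 in *Cfb*. Its junction of 60 bases occurs in 1 of 141767 annotated transcripts.

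The pair *C4b* and *C4a* is shown where the long transcripts differ most within 1 exon, because reads from identical stretches cannot be told apart. The lines give 60 bases of exon 11 of *C4b* (chr17:34740384-34740443) and of *C4a* (chr17:34819903-34819962), with the 11 bases that differ in capitals.
C4b ENSMUST00000069507: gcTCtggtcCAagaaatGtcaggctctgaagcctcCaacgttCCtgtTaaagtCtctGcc
C4a ENSMUST00000159669: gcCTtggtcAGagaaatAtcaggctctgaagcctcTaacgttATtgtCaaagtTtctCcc
Over 5160 aligned bases, these transcripts were 96.5% identical, with a longest identical run of 433 bases. Of all windows of 100 bases in the *C4b* transcript, the length of 1 read, 16.5% also occur in a *C4a* transcript.

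*Cfd* and *C3* were expressed far above the other members at both ages. In the order of mean FPKM at PN21, *Cfd* ranked 49 and *C3* 223 among the 15915 genes, against 1275 for *Cfb*, 1466 for *Serping1*, 1797 for *C4b*, 2357 for *Cfp* and 3864 for *C2*. At PN98 the ranks were 25 and 183 for *Cfd* and *C3*, 469 for *Cfb*, 563 for *C4b*, 794 for *Serping1*, 2693 for *Cfp* and 2742 for *C2*. In every mouse there was more *Cfd* than *C3*, and more *C3* than any other member. The ranges of *Cfb*, *Serping1* and *C4b* overlapped at both ages. Within the same mouse, however, *Cfb* was above *C4b* in 8 of 8 mice and above *Serping1* in 7 of 8. *Serping1* was above *C4b* in all 4 PN21 mice and below it in all 4 PN98 mice. These orders are given as counts, with no test. *Cfp* overlapped with *C4b* at PN21 and with *C2* at PN98, whereas at PN21 every mouse was lower in *C2* than any was in *Cfp*. *Cfd* alone made up 65.7% to 91.9% of the summed FPKM of the 7 genes in a mouse.

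Between the ages, no member passed the test. With limma on log2(FPKM + 1), an adjusted p under 0.05 (Benjamini-Hochberg over all genes) was found for 0 of the 7 members, against 5.26% of all genes tested (2.35% higher and 2.91% lower at PN98). Without adjustment, *C4b* and *Cfb* passed this threshold, which is 2 of the 7, both higher at PN98, whereas 27.1% of all genes did so in either direction and 8.21% with higher values at PN98. The median log2 fold change of the members, PN98 minus PN21, was 0.63, and 5 of 7 were positive. Over all genes tested the median was −0.21 and 33.3% were positive, and with median of ratios scaling between libraries this median moved to −0.02 and that of the members to 0.86, with 6 of 7 positive. The ages overlapped in all 7 members, whereas they did not in 16.0% of all genes, 6.07% with PN98 above PN21.

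**Figure D1:**
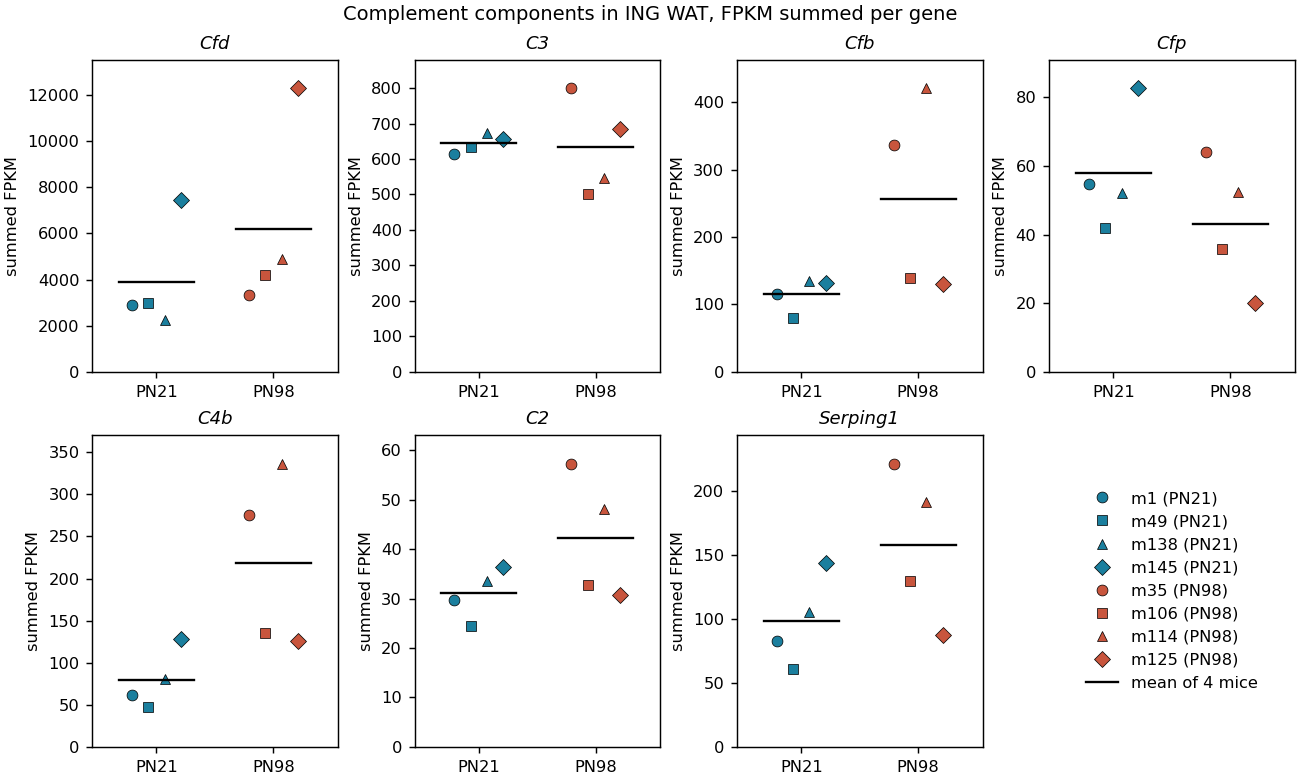
Summed FPKM (vertical axes, each from 0) of the 7 complement genes in 4 PN21 and 4 PN98 mice, with 1 point per mouse and a line at the mean of each age. In the panels of *Cfb*, *C4b*, *C2* and *Serping1*, PN98 mice m35 and m114 lie above all PN21 mice, and the ages overlap in all 7 panels.

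*Cfd* encodes factor D, the protease that cuts factor B. Its single transcript had 2914, 2992, 2262 and 7463 FPKM at PN21 and 3353, 4202, 4886 and 12288 FPKM at PN98. PN21 mouse m145 and PN98 mouse m125 stood far above the others of their age, and the remaining PN98 mice were all above the remaining PN21 mice. Mean FPKM was 3908 ± 2393 before and 6182 ± 4119 after (SD, 4 mice each), and the log2 fold change was 0.63 (standard error 0.49, limma adjusted p = 0.425). The 95% confidence interval of the fold ran from 0.708 to 3.38. Without m125 the log2 fold change was 0.23, and without m145 it was 0.997.

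*C3* encodes the component on which all pathways converge. Its summed expression was 615, 634, 673 and 656 FPKM at PN21 and 799, 500, 547 and 685 FPKM at PN98. The PN21 mice lay within a factor of 1.09 of each other, and PN98 values fell on both sides of them. The log2 fold change was −0.05 (standard error 0.18, limma adjusted p = 0.874), with a fold between 0.728 and 1.28 (95% confidence interval). Without further scaling of the libraries, a change of 1.5-fold in either direction lay outside this interval. The sign turned with median of ratios scaling, to 0.18, and with scaling to nuclear genes, to 0.21. No interval is given for these scalings.

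*Cfb* encodes factor B, the catalytic part of the alternative pathway enzyme. Summed FPKM was 115, 79.2, 135 and 131 at PN21 and 336, 139, 420 and 130 at PN98. PN98 mice m35 and m114 had over 300 FPKM, whereas m106 and m125 were beside the highest PN21 mice. The log2 fold change was 0.99 (standard error 0.41, limma adjusted p = 0.173) and the fold was 1.99, with a 95% confidence interval from 1.03 to 3.85. Within PN98 the highest mouse had 3.22 times the FPKM of the lowest, against 1.70 times within PN21. The study, from the same mice, lists *Cfb* as a white preadipocyte marker higher at PN98, by transcripts at an unadjusted p under 0.05.

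*Cfp* encodes properdin, which myeloid cells are known to release. It had 54.6, 42.0, 52.0 and 82.6 FPKM at PN21 and 64.0, 35.9, 52.5 and 20.1 FPKM at PN98. Values overlapped except for m145, above every PN98 mouse, and m106 and m125, below every PN21 mouse. The log2 fold change of −0.49 (standard error 0.37, limma adjusted p = 0.406) was within the spread between mice. Summed FPKM of 6 macrophage markers (*Adgre1*, *Cd68*, *Csf1r*, *Mrc1*, *Cd163* and *Lyz2*) was 395 to 659 at PN21 and 176 to 801 at PN98, and was lowest in m125, the mouse with the least *Cfp*. In whole tissue, fewer cells of a type and less RNA per cell cannot be told apart.

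*C4b* encodes complement C4, the first substrate of the classical and lectin proteases. Summed FPKM was 61.9, 47.7, 80.1 and 127.6 at PN21 and 275, 136, 337 and 125.5 at PN98. Of the PN98 mice, 3 were above all PN21 mice, and m125 was just below m145, the highest PN21 mouse. Mean FPKM was 79.3 ± 34.8 at the younger and 218 ± 104 at the older age (SD, 4 mice each). The fold of 2.67 had a 95% confidence interval from 1.38 to 5.16, and the adjusted p from limma was 0.0880. The scaling and the weighting of the libraries decided this call. The adjusted p was 0.0369 with median of ratios scaling (log2 fold change 1.64), 0.0464 with scaling to nuclear genes (1.67) and 0.0290 with limma arrayWeights (1.29).

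The copy *C4a*, a locus known for a sex-limited C4 protein, had nearly the same values in every mouse. Its summed FPKM was 62.1, 46.3, 73.7 and 137 at PN21 and 287, 133, 366 and 122 at PN98. The log2 fold change was 1.46 (standard error 0.45, limma adjusted p = 0.0999). Of its FPKM most came from short transcripts at the 3′ end, and the long *C4a* transcript ENSMUST00000159669 had only 2.20 to 6.602 FPKM at PN21 and 7.65 to 31.7 FPKM at PN98. How reads of the identical stretches were divided between *C4a* and *C4b* cannot be seen in the deposited values. When both were summed and tested as 1 gene, the log2 fold change was 1.44 and the adjusted p was 0.0935.

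*C2* encodes the protease that joins C4 in the classical enzyme. It had 29.7, 24.5, 33.6 and 36.3 FPKM at PN21 and 57.3, 32.7, 48.2 and 30.7 FPKM at PN98. PN98 mice m35 and m114 were above all PN21 mice and m106 and m125 were inside their range. The log2 fold change was 0.40 (standard error 0.24, limma adjusted p = 0.301).

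*Serping1*, the inhibitor, had 82.8, 60.8, 105 and 144 FPKM at PN21 and 222, 130, 191 and 87.6 FPKM at PN98. Again m35 and m114 were above the PN21 mice, and m125 lay near m1. The log2 fold change was 0.66 (standard error 0.36, limma adjusted p = 0.260), and the 95% confidence interval of the fold ran from 0.893 to 2.79.

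**Figure D2:**
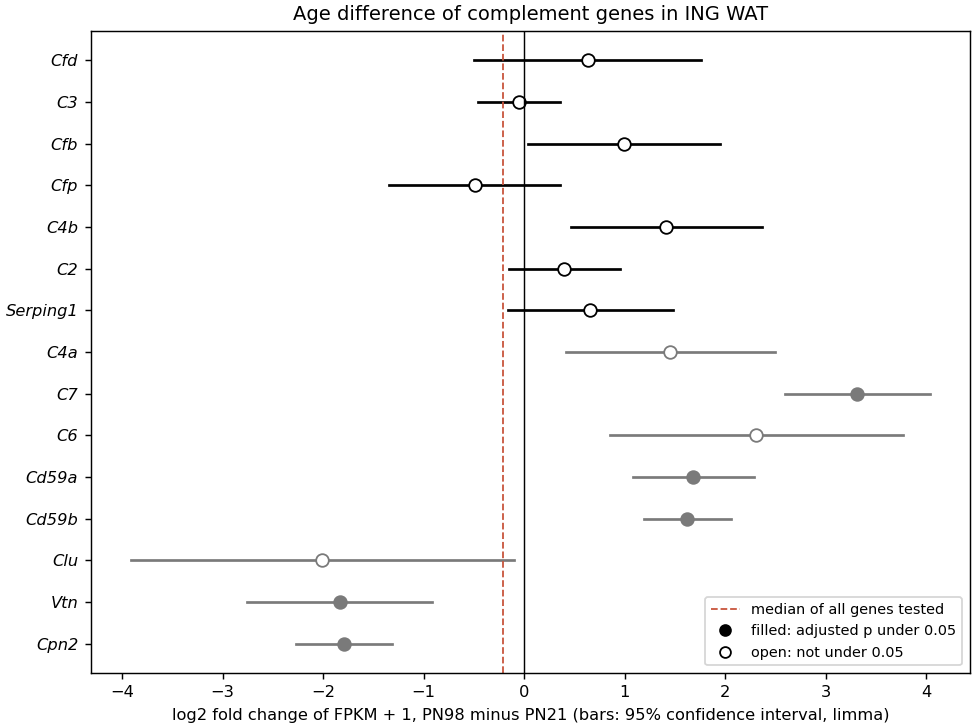
Log2 fold changes of FPKM + 1, PN98 minus PN21, with 95% confidence intervals from limma (horizontal axis) for the 7 members (black) and 8 other complement genes (grey), with the median of all genes tested as a dashed line. Symbols of all members are open, since no adjusted p was under 0.05, and filled symbols mark *C7*, *Cd59a*, *Cd59b*, *Vtn* and *Cpn2*.

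*C4b*, *C4a* and *Cfb* ranked the PN98 mice in the same order, from m114 through m35 and m106 to m125, and *C2*, *Serping1* and *Cfp* differed from it only by m35 standing above m114. *C3* had the order m35, m125, m114 and m106, and *Cfd* the order m125, m114, m106 and m35. The summed progenitor markers (650, 644, 498 and 356 FPKM in m114, m35, m106 and m125) stood in the order of *C4b* and *Cfb*, with m114 and m35 nearly equal. Single markers differed, since *Pi16* was higher in m114 (126 against 89.7 FPKM) and *Dcn* in m35 (471 against 443 FPKM). The summed macrophage markers (801, 442, 339 and 176 FPKM in m35, m114, m106 and m125) stood in that of *C2* and *Serping1*. Most of this sum was *Lyz2* (669 FPKM in m35), whereas *Adgre1*, *Mrc1* and *Cd163* were highest in m114. Summed FPKM of 4 brown adipocyte markers (*Ucp1*, *Cidea*, *Cox7a1* and *Cox8b*) was 369 in m35, 1011 in m114, 2355 in m106 and 4171 in m125, and 3031 to 6455 at PN21. *Ucp1* alone was 7.41 and 56.3 FPKM in m35 and m114 and 278 and 356 FPKM in m106 and m125. Of 6 lymphocyte markers, 5 had values, and their sum was 481 in m35 and 5.98 to 101 in the other PN98 mice, against 189 to 478 at PN21. The part of these cell types in the spread of the complement genes was not tested, and the diet of the mice cannot be told apart from it.

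**Figure D3:**
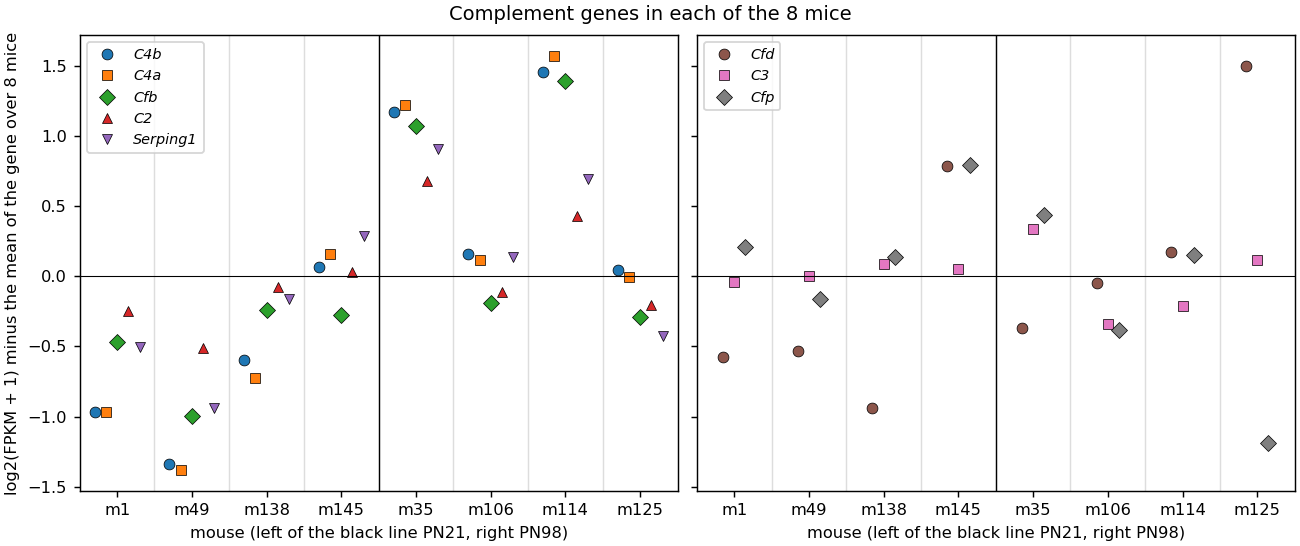
Log2(FPKM + 1) of each gene minus its mean over the 8 mice (vertical axis) for each mouse (horizontal axis), with *C4b*, *C4a*, *Cfb*, *C2* and *Serping1* on the left and *Cfd*, *C3* and *Cfp* on the right. Symbols on the left panel lie highest in PN98 mice m35 and m114, while *Cfd* on the right is highest in m125.

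At the level of transcripts, 19 of the 28 member transcripts could be tested, being above 0 FPKM in each mouse and above 2 FPKM on average at either age. Of these, 0 had an adjusted p under 0.05 with limma on log2(FPKM), against 1.29% of the 23124 transcripts tested, and the lowest adjusted p was 0.116. Without adjustment 5 passed, all higher at PN98, where the share over all transcripts was 6.93% in that direction and 21.7% in either. In 3 of the 19 all PN98 mice lay above all PN21 mice, as did 5.42% of all transcripts. These were 2 transcripts of *C4b* and 1 of *C2*.

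The full-length *C4b* transcript ENSMUST00000069507 had 27.7, 17.6, 40.2 and 34.1 FPKM at PN21 and 144, 71.1, 186 and 50.8 FPKM at PN98, with no overlap between the ages. Its log2 fold change was 1.79 (standard error 0.47, limma adjusted p = 0.116). A *C4b* transcript of the nonsense-mediated decay class, ENSMUST00000173057, shared 0 of its 664 windows of 100 bases with *C4a* and had 7.97, 5.39, 13.1 and 1.03 FPKM at PN21 and 40.2, 22.1, 46.5 and 14.6 FPKM at PN98. Its ages did not overlap either, with a log2 fold change of 2.51 (standard error 0.81, limma adjusted p = 0.159). The third, ENSMUST00000173669, keeps an intron at the 3′ end and had 26.2, 24.7, 26.8 and 92.4 FPKM at PN21 and 90.9, 42.7, 104 and 60.1 FPKM at PN98. This transcript made up most of the summed *C4b* in m145 and, by less, in m49 (24.7 of 47.7 FPKM). In m145 only 26.8% was full-length, against 36.9% to 50.2% in the other PN21 mice and 40.5% to 55.3% at PN98.

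For *Cfb*, the leading transcript ENSMUST00000154526 had 42.4, 27.9, 51.3 and 39.6 FPKM at PN21 and 145.1, 56.1, 182 and 47.0 FPKM at PN98. Its log2 fold change was 1.21 (standard error 0.49, limma adjusted p = 0.215). The other tested *Cfb* transcripts, ENSMUST00000141295, ENSMUST00000176332 and ENSMUST00000133127, start inside the gene and had log2 fold changes of 0.85, 0.81 and 2.07. The last (standard error 1.12, limma adjusted p = 0.307) rested on 0.788 FPKM in m49 and 8.36 FPKM in m145. The other PN21 mice, m1 and m138, had 20.8 and 28.6 FPKM of it.

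None of the 4 tested *C2* transcripts passed. ENSMUST00000025230 had 8.68, 6.90, 10.9 and 8.03 FPKM at PN21 and 18.3, 12.3, 19.5 and 8.76 FPKM at PN98 (log2 fold change 0.72, limma adjusted p = 0.227). ENSMUST00000152417 had 6.43, 3.15, 8.34 and 10.7 FPKM at PN21 and 18.3, 11.2, 14.2 and 12.98 FPKM at PN98, with no overlap (log2 fold change 1.09, limma adjusted p = 0.183). ENSMUST00000148431, which starts further upstream, had 4.70, 5.12, 4.01 and 13.8 FPKM at PN21 and 5.32, 3.27, 2.39 and 2.72 FPKM at PN98 (log2 fold change −0.89, limma adjusted p = 0.281), and only m145 stood far from the other mice. The intron-holding ENSMUST00000127795 had a log2 fold change of 0.19 (limma adjusted p = 0.826).

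The 4 transcripts of *C3* had log2 fold changes of −0.19, 0.09, 0.04 and 1.06, and the last rested on 1.83 FPKM of ENSMUST00000176457 in m145 against 34.9 to 65.4 FPKM in the other mice. *Cfp* had a coding transcript at −0.47 and a processed transcript at −0.84, and the single tested transcript of *Serping1*, ENSMUST00000023994, was at 0.66 on the log2 scale. The share of a gene held by its leading transcript did not differ beyond the spread between mice in any of the 6 members with several transcripts. The difference nearest to it was that of *Cfb*, from 35.1 ± 3.49% to 40.7 ± 3.42% (SD, 4 mice each, two-sided exact permutation test, p = 0.0857, 0.343 after adjustment over 6 genes).

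**Figure D4:**
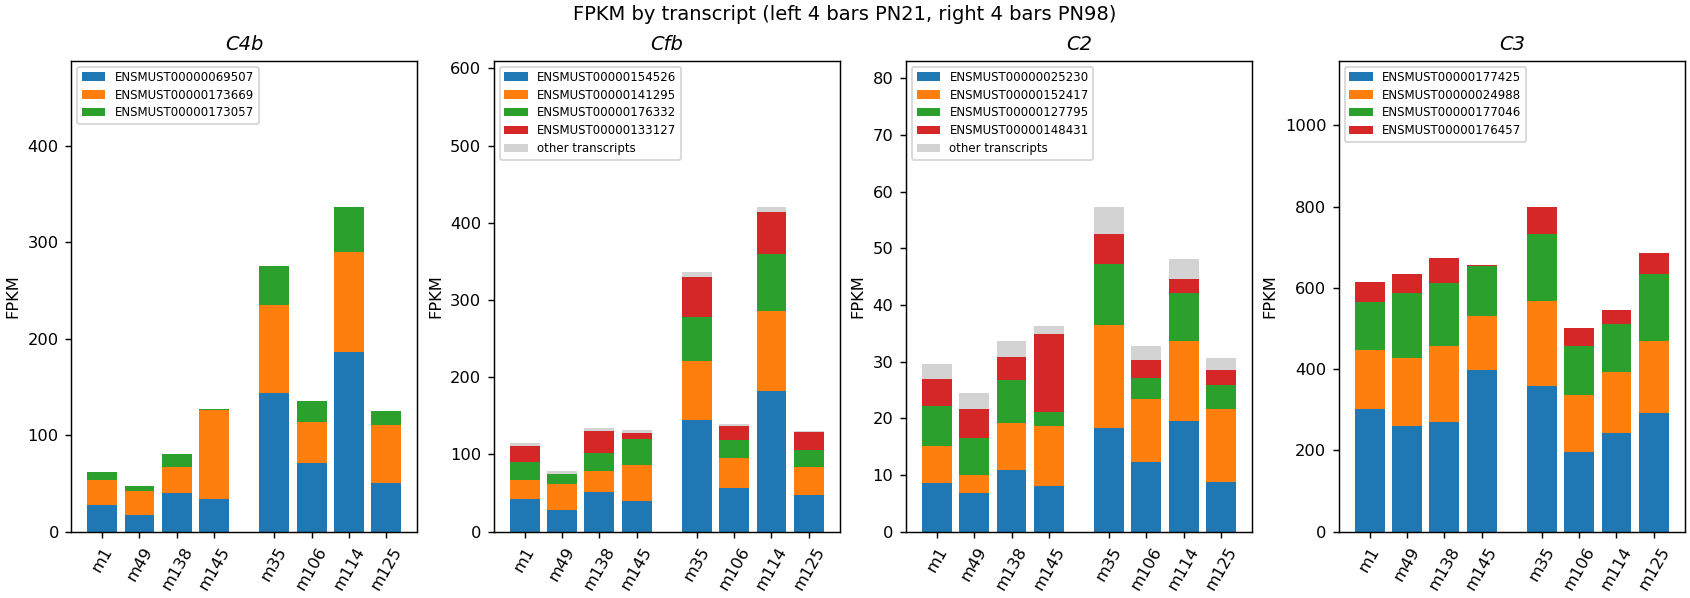
FPKM by transcript, stacked to the summed FPKM of the gene (vertical axes, from 0), for *C4b*, *Cfb*, *C2* and *C3* in each mouse, with PN21 on the left and PN98 on the right of each panel; grey holds transcripts that did not pass the filter. In m145 and, by less, in m49 the *C4b* bar is mostly ENSMUST00000173669, while in m35 and m114 all 3 *C4b* transcripts are high.

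The read-through transcript ENSMUST00000129891 had 1.94, 2.44, 1.38 and 0 FPKM at PN21 and 3.12, 6.03, 9.40 and 0.000113 FPKM at PN98. It was listed at 0 or near 0 in m145 and m125, the mice with the most *Cfd*. Where it was found, it amounted to 4.10% to 19.5% of the summed FPKM of *C2* and 0.929% to 4.33% of that of *Cfb*. The second read-through transcript, ENSMUST00000146299, was at or near 0 in all 8 mice. For the summed locus *Gm20547* the log2 fold change was 0.91 (standard error 0.73, limma adjusted p = 0.434).

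*C2* was lower relative to *Cfb* at PN98, a comparison of 1 ratio without adjustment. Its summed FPKM was 25.8%, 31.0%, 24.9% and 27.6% of that of *Cfb* at PN21 and 17.05%, 23.5%, 11.5% and 23.5% at PN98. All PN98 mice lay below all PN21 mice, although m106 and m125 came close to m138. The log2 ratio went from −1.88 ± 0.14 to −2.46 ± 0.49 (SD, 4 mice each), which is a difference of −0.59 (two-sided exact permutation test, p = 0.0286, the smallest that 4 against 4 mice can give). When every transcript whose gene column listed a symbol was counted for it, the difference was −0.16 (exact permutation test, p = 0.0571), since 10 transcripts then counted for both genes. Without any 1 of the PN21 mice, the ages still did not overlap, yet the exact permutation p was 0.0857 to 0.143. That test compares means, and other splits of the unequal groups then gave differences as large.

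ING WAT holds adipocytes, progenitors, immune and vascular cells, and the markers of several of these moved with age. Of 6 adipocyte markers, *Adipoq*, *Cidec* and *Lipe* rose with an adjusted p under 0.05 with limma. *Plin1* (log2 fold change 0.89, limma adjusted p = 0.298) did not pass, nor did *Pparg*, which was lower (−0.26, adjusted p = 0.598). The summed FPKM of all 6, most of it *Fabp4*, which did not pass (adjusted p = 0.0539), was 12258 to 22458 at PN21 and 32826 to 43321 at PN98. Of 5 neutrophil markers, 4 had values and *S100a9*, *Retnlg* and *Camp* fell, from 55.6 to 125.2 FPKM in sum at PN21 to 2.04 to 7.52 FPKM at PN98. Among 5 epithelial markers *Epcam* fell, and the sums were 1.87 to 27.2 FPKM at PN21 and 0.211 to 1.11 FPKM at PN98. None passed among 6 progenitor (346 to 702 FPKM in sum at PN21, 356 to 650 at PN98), 6 macrophage, 5 lymphocyte, 4 endothelial (142 to 209 and 64.4 to 234), 2 skeletal muscle (1.48 to 80.6 and 101 to 725), 5 hepatocyte (8.72 to 144.6 and 31.5 to 89.7) and 4 brown adipocyte markers. *Alb*, the defining hepatocyte marker, was between 3.74 and 86.7 FPKM, and *Krt14* was listed at 0 in all 4 PN98 mice. *Cd3d*, *S100a8*, *Mylpf* and *Acta1* were not analysed here.

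Relative to markers of progenitors, the levels of *Cfb*, *C2*, *C4b* and *Serping1* did not overlap between the ages, although none passed after adjustment. Within each mouse, the mean log2(FPKM + 1) of the 6 progenitor markers (*Pdgfra*, *Dcn*, *Lum*, *Dpp4*, *Pi16* and *Cd34*) was subtracted from that of the member, which takes out the scaling of the library. The markers moved too, with log2 fold changes from −1.20 (*Cd34*) and −1.09 (*Lum*) to 0.43 (*Pi16*). Each difference therefore holds the change of the markers as well as that of the member. The difference between the ages was 1.35 for *Cfb*, 0.75 for *C2*, 1.77 for *C4b* and 1.01 for *Serping1*, each with no overlap between ages (two-sided exact permutation test, p = 0.0286, 0.0600 after adjustment over 21 pairs of member and list). Relative to the macrophage markers the differences of these genes were 1.15, 0.56, 1.57 and 0.82, with the same p-values, and *Cfp* differed by −0.34 (exact permutation test, p = 0.0286, adjusted p = 0.0600). Relative to the adipocyte markers only *C3* had no overlap, with a difference of −1.08 (exact permutation test, p = 0.0286, adjusted p = 0.0600), and *Cfb* and *C4b* differed by −0.04 and 0.38 (exact permutation test, p = 1.0 and 0.543). Of the 21 pairs, 10 had an unadjusted p under 0.05 and 0 an adjusted one. The share of all genes that would do so relative to these lists was not computed, so that these counts cannot be set against it. All 10 pairs stood at the smallest p that the exact permutation test of 4 against 4 mice can give. With 10 of 21 pairs there, the adjusted p could not be lower than 0.0600, so that the adjusted result was set by the design.

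Of 47 other genes of the complement system, 30 had a mean FPKM of at least 1. Of these, 5 had an adjusted p under 0.05 with limma, 3 higher and 2 lower at PN98, which is 16.7% against 5.26% of all genes tested. Their median log2 fold change was 0.11. Without m35, 7 of the complement genes were called and 21.7% of all genes, and without any other single mouse 4 to 5 and 1.17% to 3.50%. The 5 called genes were the terminal component *C7* and the regulators *Cd59a*, *Cd59b*, *Vtn* and *Cpn2*.

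*C7*, a part of the membrane attack complex, had 0.770, 0.181, 0.652 and 0.631 FPKM at PN21 and 22.9, 14.5, 16.6 and 7.45 FPKM at PN98. All PN98 mice were far above all PN21 mice, and the fold on the scale of FPKM + 1 was 9.94 (log2 fold change 3.31, standard error 0.31, limma adjusted p = 0.00265). *C6*, which binds before C7, had 0.190, 0.326, 0.446 and 0.532 FPKM at PN21 and 12.9, 3.27, 16.3 and 1.06 FPKM at PN98. Its ages did not overlap, yet PN98 mice differed by a factor of 15.4 in the same order as for *Cfb*, and the adjusted p was 0.0760 (log2 fold change 2.31, limma). Of the other terminal components, *C8g* was between 2.21 and 6.55 FPKM without a change that passed, and *Hc*, which encodes C5, *C8a*, *C8b* and *C9* were below the filter, with at most 0.705 FPKM in any mouse.

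*Cd59a* and *Cd59b* encode membrane proteins that block the membrane attack complex, and both rose. *Cd59a* went from 36.4, 33.1, 26.1 and 46.9 FPKM at PN21 to 126, 91.3, 167.5 and 87.95 FPKM at PN98 (log2 fold change 1.68, limma adjusted p = 0.0147), and *Cd59b* from 3.08, 2.59, 1.86 and 1.75 FPKM to 7.29, 8.70, 10.1 and 10.6 FPKM (1.62, adjusted p = 0.00574). *Vtn* encodes vitronectin, which binds the forming complex in plasma, and fell from 22.5, 24.4, 26.8 and 31.7 FPKM to 17.6, 5.20, 4.79 and 4.00 FPKM (−1.84, adjusted p = 0.0404). *Cpn2*, a subunit of the carboxypeptidase that inactivates the C3a and C5a peptides, fell from 5.02, 5.54, 2.99 and 3.85 FPKM to 0.193, 0.528, 0.618 and 0.784 FPKM (−1.79, adjusted p = 0.00574). The study lists *Cpn2* among its markers of brown adipocytes, as lower at PN98. That value comes from the same mice and from transcripts at an unadjusted p under 0.05, so that it is no second observation. The groups did not overlap in any of the called genes, which is no separate support, since the same values gave the call. Among the 30 complement genes tested, all PN98 mice lay above all PN21 mice in 4 and below them in 2. Over all genes tested, the ages did not overlap in 16.0%. *Vtn* lost the call without any 1 of 7 mice (adjusted p 0.0832 to 0.120), and without m35 its adjusted p was 0.00256.

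**Figure D5:**
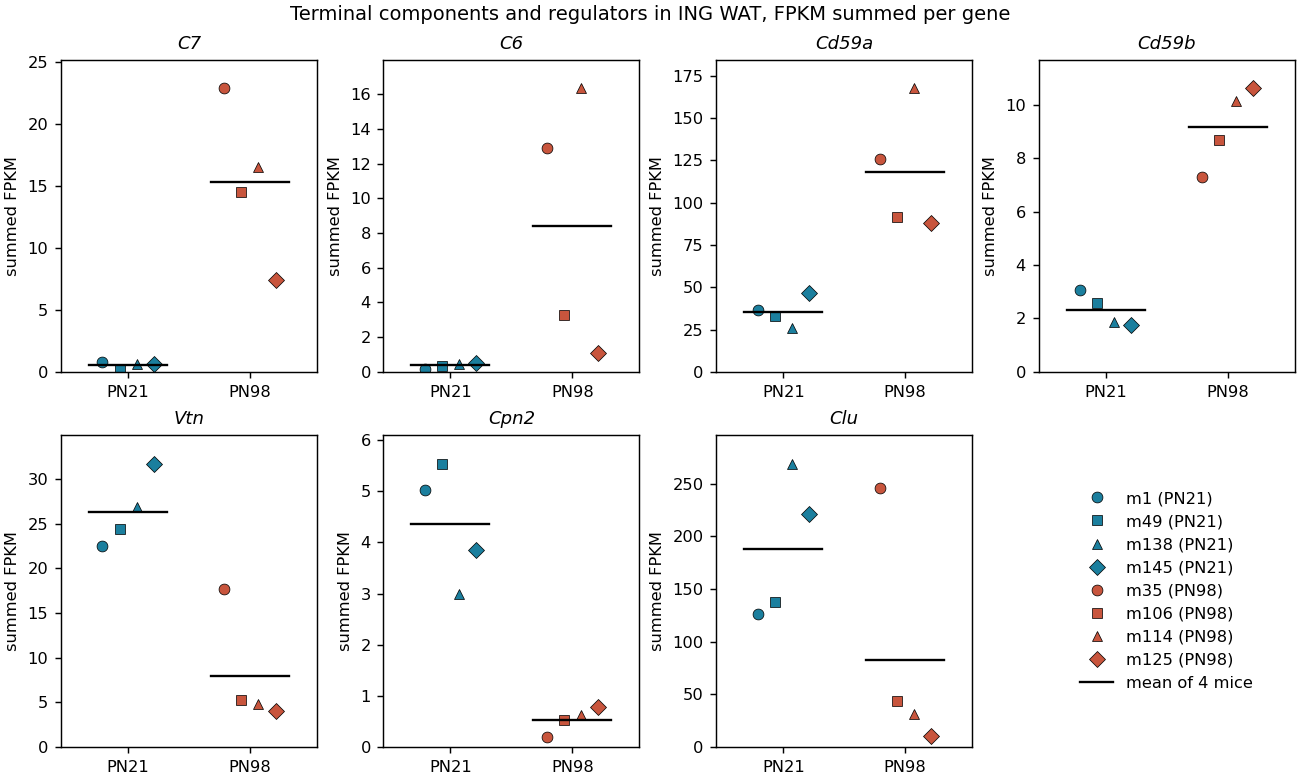
Summed FPKM (vertical axes, each from 0) of *C7*, *C6*, *Cd59a*, *Cd59b*, *Vtn*, *Cpn2* and *Clu* in 4 PN21 and 4 PN98 mice, with 1 point per mouse and a line at the mean of each age. The ages do not overlap in any panel but that of *Clu*, where PN98 mouse m35 lies at 246 FPKM and the other PN98 mice at 10.3 to 43.2 FPKM.

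All 9 genes of the classical pathway passed the filter and 0 were called. *C1qa*, *C1qb* and *C1qc*, the chains of C1q, had 67.1 to 217, 64.7 to 164 and 46.8 to 137.8 FPKM over the 8 mice and log2 fold changes of −0.29, −0.08 and −0.25. The proteases *C1s1* (41.2 to 109 FPKM) and *C1ra* (17.4 to 35.7 FPKM) were at 0.25 and 0.19. Of 9 lectin pathway genes, only *Fcna*, *Colec11* and *Colec12* passed the filter, and the starter proteases *Masp1* and *Masp2* and the lectins *Mbl1* and *Mbl2* had at most 1.21 FPKM in any mouse. *Fcna*, a ficolin, had a log2 fold change of −0.20 (limma adjusted p = 0.729). Of 14 regulators, 9 passed. *Clu*, clusterin, was at −2.01 (adjusted p = 0.170), with 126 to 269 FPKM at PN21 and 246 FPKM in m35, and *Cd55* and *Cr1l*, membrane inhibitors of the C3 enzymes, were at −0.08 and −0.19. Of 8 receptors, 6 passed and 0 were called, among them *Itgb2*, a chain of complement receptor integrins, at −0.74 (adjusted p = 0.328).

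No change passed among the neighbours of the members on the chromosome. Of 9 genes beside *C2* and *Cfb*, *C4b* or *Cfd*, 8 were tested and 0 called, with log2 fold changes between −0.36 and 0.21. The genes most like each member were sought by the root mean square difference over the 8 mice of log2(FPKM + 1), each centred on its mean. For *C4b*, *C4a* was nearest with a difference of 0.08 on the log2 scale, and *Ifi27l2a* followed with 0.26. *Cfb* was nearest to *Trem2* (0.17) and *Abat* (0.21), *C2* to *Fas* (0.09) and *Ifngr1* (0.11), and *Serping1* to *Nap1l1* (0.16) and *Fam124a* (0.19). *Cfp* was nearest to *Gdf10* (0.07) and *Fcer1g* (0.13), *C3* to *Snrnp48* (0.09) and *Gatd1* (0.10), and *Cfd* to *Gm9870* (0.28) and *Gm15417* (0.31). *Gm9870* was at or near 0 in m1, m49 and m138 and at most 3.64 FPKM, so that the added 1 FPKM shapes its distance. *Trem2* (0.839 to 7.31 FPKM) and *Abat* (0.683 to 6.72 FPKM) were low as well. These distances describe the 8 libraries and carry no test.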

How the data were processed

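The authors mapped reads to mm10 with STAR 2.3.0, quantified transcripts with Cufflinks 2.1.1 on a Gencode annotation and deposited FPKM per transcript, beside a standard deviation, an average and a score per transcript. In 40426 of the 91969 transcripts a decimal mark was lost. It was restored from that score, average and standard deviation, which were read as also covering samples that have no column. A reading was kept where the values solved for those samples were real, not negative and short in digits. This left 1 reading for 40352 transcripts. All 4996 of these that also stand intact in the deposited comparison table were equal in all mice. The 74 others, with 70 genes, were left out, and no member was among them. The fold changes and p-values of that comparison table were not used. The 3230 transcripts absent from GENCODE vM21 entered no sum.

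FPKM carries no read count, so that the depth is unknown. FPKM was summed per gene, and genes with a mean of at least 1 were tested with limma 3.58.1 (R 4.3.3) on log2(FPKM + 1) by age, with Benjamini-Hochberg adjustment and 0.05 as threshold. Transcripts above 0 in all mice with a mean above 2 at either age were tested on log2(FPKM). Single values were compared by two-sided exact permutation tests over 70 splits. The scripts were checked on simulated data. Where nothing says how replicates arose, p-values measure the spread between these mice. *Ddx3y*, on the Y chromosome, was at 18.1 to 25.9 FPKM and *Xist* at most 0.832 FPKM in all 8 mice.

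Members and gene lists were chosen with earlier results of these data known. Named were all members, their tested transcripts, *C4a*, *Gm20547*, called pathway genes and the 12 pathway genes with the highest mean, and the 2 nearest genes of each member. *C6* and further pathway and marker genes were named after their values were seen.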

Additional observations from a re-analysis of the deposited data

Results flagged for a closer look

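In 98 groups of 4 mice, the highest or lowest mouse was set against the others by Dixon's ratio of gap to range. Its 95% critical value, which chance passes in about 1 in 20 groups, was passed 7 times. PN21 mouse m145 had 7463 FPKM of *Cfd*, against 2262 to 2992 FPKM in the other PN21 mice, and the same value for its only transcript, ENSMUST00000061653. The same mouse had 13.8 FPKM of the *C2* transcript ENSMUST00000148431, against 4.01 to 5.12 FPKM. It also had 92.4 FPKM of the *C4b* transcript ENSMUST00000173669, against 24.7 to 26.8 FPKM. PN98 mouse m35 had 246 FPKM of *Clu*, against 10.3 to 43.2 FPKM in the other PN98 mice, 41.9 FPKM of *Itgb2*, against 7.47 to 12.6 FPKM, and 17.6 FPKM of *Vtn*, against 4.00 to 5.20 FPKM.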

How the results depend on the processing

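The count of members with an adjusted p under 0.05 was 0 in limma, and 0 with other pseudocounts, filters, a variance trend, the listed symbols, *C4a* and *C4b* summed (added after seeing the data) and without any single mouse. It was 1, *C4b*, with arrayWeights and with each other scaling of the libraries (median of ratios or nuclear genes). *C4a* was called with median of ratios scaling (adjusted p = 0.0463) and arrayWeights (0.0359). At an unadjusted p under 0.05 the count was 1 to 4 instead of 2. Genes called higher and lower, 374 and 463 as reported, were 741 and 443 under median of ratios scaling, 532 and 252 when scaled to nuclear genes, 1135 and 3391 with arrayWeights, 269 and 258 with a mean of at least 5 FPKM, and 93 to 668 and 94 to 2760 without 1 mouse. No member transcript was called under any alternative. *C3*, near 0, turned to 0.18 under median of ratios scaling, 0.21 when scaled to nuclear genes, 0.055 without m106 and 0.01 without m114 (−0.17 to 0.055 without 1 mouse), and its leading transcript to 0.016 and 0.085 with these scalings. The ratio of *C2* to *Cfb* ranged from −0.71 to −0.37 without 1 mouse (exact permutation test, p = 0.0286 to 0.143), and was −0.16 with the listed symbols. Members whose leading transcript share passed numbered 0 to 1 without 1 mouse, the 1 being *Cfb* without m125 (exact permutation test, p = 0.0286). Relative to adipocyte markers, *Cfb* turned to 0.12 without m138, 0.14 without m145, 0.19 without m106 and 0.28 without m125 (lowest −0.33), and *Cfd* to 0.066 without m145 (lowest −0.74). *C3* relative to macrophage markers turned to −0.25 without m125 (highest 0.28). Pathway genes called numbered 4 to 7 with the stricter filter, both scalings and without 1 mouse. The cause of these shifts was not tested. No paired analysis was possible because the mice carry no replicate number that ties the ages. Without read counts, counting error could not be separated from the spread between mice.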
